A study of Mus musculus with 4 samples.

Results

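The epidermal growth factor (EGF) family was described here through 9 genes, 6 ligands (Areg, Ereg, Hbegf, Btc, Tgfa and Epgn) and 3 receptors (Egfr, Erbb2 and Erbb3). They were taken by symbol, and all 9 were found among the 31054 features of each of the 4 single-cell RNA libraries. The libraries came from intestinal epithelial cells of mice with the Bmi1-GFP genotype, isolated by flow cytometry from embryos of day 12.5 (E12.5) or day 17.5 (E17.5), from adults and from irradiated adults. Bmi1-GFP is a reporter of cells that transcribe Bmi1, and all 4 groups carry it. The irradiation dose, the time after it, the number of animals in each library and the sort gates are not given in the sources used here. Each group was 1 library, so no difference below could be set against a spread between replicates, and no test was made.

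The ligands are made as membrane proteins and are cut free by proteases at the cell surface. They bind Egfr, which pairs with itself or with Erbb2 or Erbb3 and signals through Ras and the MAP kinase relay. Erbb2 has no known ligand of its own, and Erbb3 has little kinase activity and is bound by neuregulins. In the intestinal crypt this pathway is known for sustaining the division of stem cells and for its part in repair after injury.

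After filtering, 4050 cells were kept at E12.5, 4409 at E17.5, 3597 from adults and 3031 from irradiated adults, with median depths of 18098, 10994, 3606 and 8547 UMIs (unique molecular identifiers, each 1 captured RNA molecule). All 6 general epithelial markers were at or above 50 CPM (a gene's UMIs scaled to the UMI total of the cells) in the epithelial cells of every library. The E17.5 library also held clusters with markers of pancreatic acinar, islet, mesenchymal, mesothelial and smooth muscle cells, which were left out of the epithelial cells (3480 of 4409). At E12.5 the same was done for 35 mesenchymal-like cells. An eGFP UMI was seen in 1347 of 4015 epithelial cells at E12.5, in 73 of 3480 at E17.5 and in 418 of 3031 from irradiated adults, while 3548 of 3597 adult cells had none. Between 6 and 12 barcodes were shared by any pair of libraries. Enteroendocrine-like cells, the hormone-secreting cells of the gut, were not named in any E12.5 cluster and made up 43.4% of epithelial cells at E17.5, 61.8% in adults and 62.4% after irradiation. For this reason each comparison was also made in the epithelial cells outside this class, called other epithelial cells. In the irradiated adult these were 881 cells, which also leave out clusters 5 and 14 (184 and 76 cells). Cluster 5 held endocrine and tuft markers together, and cluster 14 had lost an endocrine name, so both are in neither group.

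Epgn, Ereg, Areg and Btc lie next to each other on chromosome 5, in that order, within 375.5 kb (mm10, 5:91027464-91402994). Areg spans 91139599 to 91148432 on the plus strand and Btc spans 91357261 to 91402994 on the minus strand. The level of Btc followed that of Areg more closely than did that of any other member over the 22 library and class columns (Pearson r of log2(CPM + 1) = 0.90, a description over columns that share libraries). For this reason the RefSeq start-site windows of both genes are shown (250 bases before the start and 50 after it, GRCm38.p6, each on its gene's strand). Capitals mark a cyclic AMP response element, TGACGTCA, which a search of both strands found in the Areg window from base -61.
Areg (chr5:91139349-91139648, plus strand): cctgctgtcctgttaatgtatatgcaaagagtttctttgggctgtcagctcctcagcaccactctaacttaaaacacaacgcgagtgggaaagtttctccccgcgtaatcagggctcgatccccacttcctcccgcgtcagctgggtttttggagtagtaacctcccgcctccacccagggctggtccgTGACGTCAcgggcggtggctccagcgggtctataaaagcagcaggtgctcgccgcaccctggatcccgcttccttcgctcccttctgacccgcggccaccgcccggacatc
Btc (chr5:91402945-91403244, minus strand): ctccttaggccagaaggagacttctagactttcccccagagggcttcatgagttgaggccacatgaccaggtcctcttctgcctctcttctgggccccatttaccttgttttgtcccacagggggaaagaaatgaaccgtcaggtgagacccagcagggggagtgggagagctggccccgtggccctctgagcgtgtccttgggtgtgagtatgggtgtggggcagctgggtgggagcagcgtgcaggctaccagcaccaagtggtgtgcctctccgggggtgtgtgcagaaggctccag
This element was present in 588 of 32851 such windows (1.79%). The AP-1 motif (TGACTCA or TGAGTCA, 5.20% of windows) and the TEAD motif (GGAATG, 14.7% of windows) were not found in the Areg, Btc or Epgn windows.

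Levels below are CPM of UMIs summed over cells, with exact Poisson 95% intervals that cover counting error only. A gene was called past the fold when log2((CPM + 1)/(CPM + 1)) was at least 1 or at most -1, with a gene compared when either library had 50 UMIs or more. Log2 ratios are on this scale, with 1 CPM added, and folds are plain ratios of CPM with an exact 95% counting interval.

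**Figure D1:**
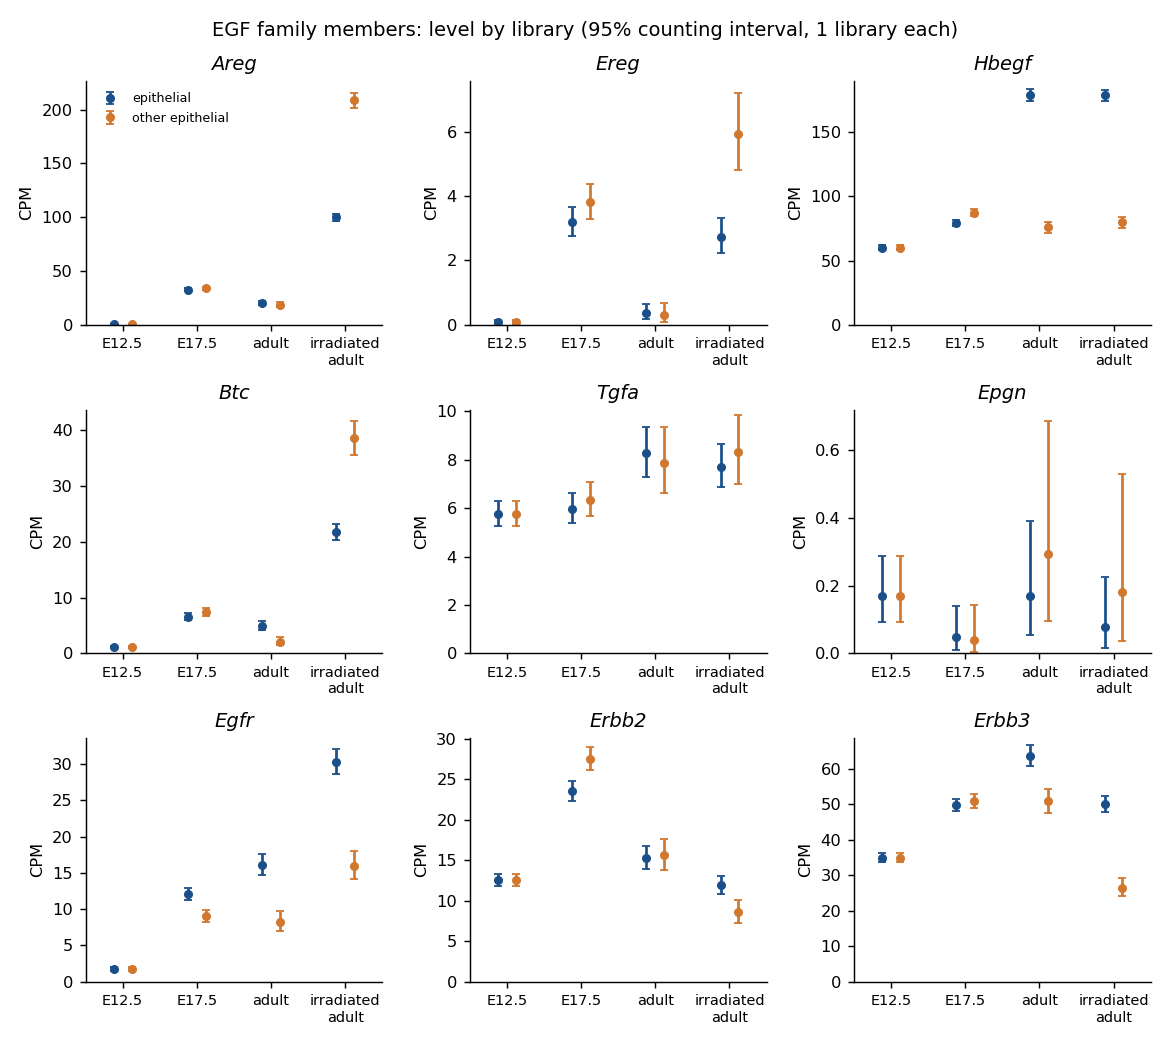
CPM of each member (vertical axis, from 0) by library (horizontal axis) in epithelial cells (blue) and other epithelial cells (orange), with 95% counting intervals as bars and 1 library per point. Areg and Btc are highest in the irradiated adult, and Hbegf separates the blue and orange points in both adult libraries.

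Areg encodes amphiregulin, a ligand known for its induction during tissue repair. In epithelial cells its level was 0.585 CPM at E12.5 (interval 0.431 to 0.776), 32.5 at E17.5 (31.1 to 34.0), 20.2 in adult cells (18.7 to 21.9) and 100.05 after irradiation (96.9 to 103.2). The irradiated adult was highest and E12.5 lowest, and none of these intervals overlapped. From E12.5 to E17.5 Areg was 55.5-fold higher (41.7 to 75.6), and from the adult to the irradiated adult it was 4.94-fold higher (4.54 to 5.40).
At E17.5 Areg was spread over the classes, with 33.7 CPM in crypt stem-like, 33.0 in enterocyte-like, 42.1 in goblet-like and 26.2 in enteroendocrine-like cells. The Gip-led endocrine cluster of that library had 72.3 CPM. With each cell thinned to 2000 UMIs, an Areg UMI was seen in 0.116% of epithelial cells at E12.5, 4.296% at E17.5, 2.95% of adult cells and 6.20% after irradiation, against 1.05, 21.4, 7.23 and 16.6% without thinning. In pancreatic acinar-like cells of E17.5 (median 12339 UMIs) it was seen in 0 of 513 thinned cells (interval up to 0.717% of cells with a UMI at that depth; the unthinned cells held 2 Areg UMIs), and in adult tuft-like cells in 0.333%.
Among other epithelial cells Areg went from 18.7 CPM in the adult to 208.8 in the irradiated adult, 11.2-fold higher (9.94 to 12.6). In enteroendocrine-like cells it was 22.3 and 18.8 CPM, a ratio of 0.845 (0.722 to 0.991), so the higher level of the irradiated adult was not seen in that class. Nor was it seen in Paneth-like cells, with Areg at 14.6 CPM before and 9.65 after irradiation (57 and 69 UMIs). Tuft-like cells went the other way, at 1.30 and 12.1 CPM from only 6 and 19 UMIs.

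The Areg UMIs of the irradiated adult were concentrated in few cells. Cluster 11, with 101 cells (3.33% of epithelial cells), held 2818 of the 3879 Areg UMIs (72.7%) and 13.8% of all epithelial UMIs, at 527.8 CPM. This cluster was led by Reg3b, Ccnd1, Gsta1 and Areg and got no name, since none of its enterocyte markers was among its leading genes. The members were allowed among the variable genes used for clustering. The shares of Areg, Btc and Ereg in this cluster are therefore partly built in, and were not computed again with the members left out. Its cells were deep, with a median of 48177 UMIs against 8547 in the library. The highest cell had 270 Areg UMIs, and the 10 highest cells held 34.6% of the library's Areg UMIs. At 2000 UMIs per cell, 43.3% of its 97 cells deep enough had an Areg UMI (Clopper-Pearson interval 33.3 to 53.8%), and 88.1% did without thinning. In the adult library, cluster 7 was the other deep unnamed cluster (187 cells, median 40172 UMIs, led by Dmbt1, Reg1 and Reg3b), with Areg at 30.1 CPM and 6.43% of its cells at 2000 UMIs (3.26 to 11.2%).
Goblet-like cells, the mucus-secreting class, were named in the irradiated adult but not in the adult, and had Areg at 248.8 CPM in 79 cells. The shallow cells without a lineage name (314 cells, median 1257 UMIs) had 108.2 CPM, close to the 100.05 of all epithelial cells in that library. They held markers of several classes at once, with 10 of 12 enteroendocrine, 8 of 9 Paneth, 6 of 7 goblet and 7 of 9 tuft markers at or above 50 CPM (summed 13715, 14161, 7134 and 1156 CPM), and the part of RNA from other cells in their Areg was not tested. Within them a cluster of 74 cells led by Ly6d, Clu and Lgals3 had 72.3 CPM. Other epithelial cells of the irradiated adult with an eGFP UMI had Areg at 271 CPM (101 cells, median 42695 UMIs), and those without had 179 (780 cells, median 2725).
With clusters 7 and 11 left out, a choice made after the data were seen, the log2 ratio of Areg was 0.92 in epithelial cells, short of the threshold, and 2.79 in other epithelial cells. With both clusters kept, the log2 ratio in other epithelial cells was 3.41, and it was 4.11 when only Paneth-like cells were left out, whose median depth was 2930 UMIs in the adult library and 98803 after irradiation. With per-cell CPM averaged, the log2 ratio of Areg in epithelial cells was 1.40. How depth and the different mix of clusters bear on these ratios was not tested.

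**Figure D2:**
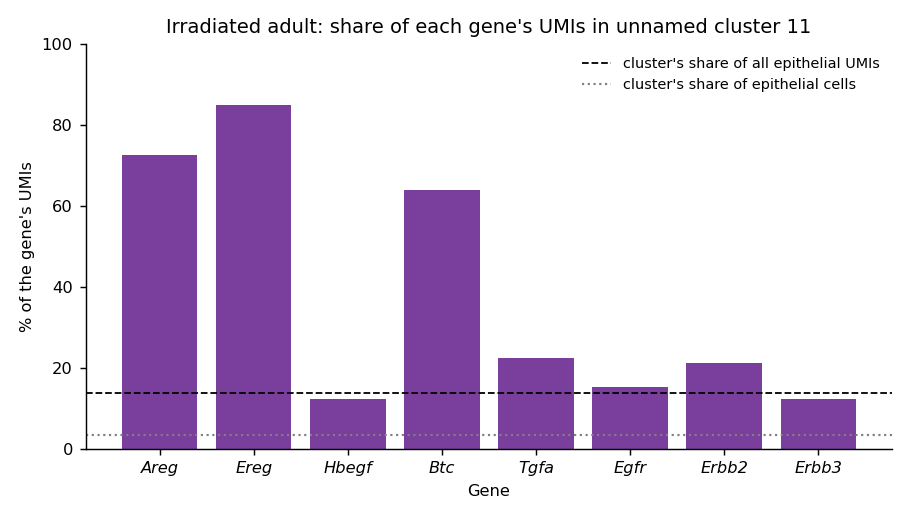
Percent of each gene's UMIs in irradiated adult epithelial cells that fell in cluster 11 (bars), by gene, with the cluster's share of all epithelial UMIs (dashed line, 13.8%) and of cells (dotted line, 3.33%). Areg, Ereg and Btc stand far above both lines, and Hbegf, Egfr and Erbb3 lie near the dashed one.

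Btc encodes betacellulin, which binds Egfr and Erbb4. Its level in epithelial cells was 1.10 CPM at E12.5, 6.51 at E17.5, 4.87 in adult cells and 21.8 after irradiation. The last was again highest, 4.47-fold above the adult (3.74 to 5.36). In other epithelial cells the levels were 2.06 and 38.6 CPM, an 18.7-fold difference (13.3 to 27.2). Paneth-like cells had 1.28 CPM before and 1.68 after irradiation (5 and 12 UMIs), and tuft-like cells 1.08 and 1.27 (5 and 2 UMIs). Enteroendocrine-like cells had 8.62 and 9.51 CPM. Goblet-like cells and cells without a lineage name, neither named in the adult, had 33.5 and 38.8 CPM after irradiation. The part of this mix in the difference was not tested.
Cluster 11 held 63.9% of the irradiated adult's Btc UMIs, at 101.0 CPM, against 2.95 CPM in cluster 7 of the adult. Without both clusters the log2 ratio of Btc was 0.61 in epithelial cells and 2.19 in other epithelial cells. With both clusters kept, the latter ratio was 3.69, or 4.36 when only Paneth-like cells were left out. A second site of Btc was the somatostatin-led endocrine cluster (Sst, Iapp and Asic5), with 30.5 CPM in adult cells and 30.4 after irradiation, against 1.87 to 12.6 CPM in the other adult endocrine clusters.

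Ereg encodes epiregulin and was scarce everywhere. It had 6 UMIs at E12.5 (0.0731 CPM), 198 at E17.5 (3.18 CPM), 11 in adult cells (0.370 CPM) and 106 after irradiation (2.73 CPM). At E17.5 the enterocyte-like cells, the absorptive class, held 59.1% of its UMIs, and in the irradiated adult cluster 11 held 84.9%. The irradiated adult was 7.39-fold above the adult (3.97 to 15.3), and without clusters 7 and 11 it was under the minimum of 50 UMIs in both libraries, so no ratio is given.
Epgn, which encodes epigen, had 14, 3, 5 and 3 UMIs in the 4 libraries in order of age and treatment, too few for a ratio.
Tgfa encodes transforming growth factor alpha and did not pass the fold in any comparison. Its level was 5.77 CPM at E12.5, 5.98 at E17.5, 8.27 in adult cells and 7.71 after irradiation. Its highest classes were tuft-like cells, the chemosensory class, with 15.6 CPM before and 17.8 after irradiation (72 and 28 UMIs). The adult value was not above the 13.0 CPM of irradiated goblet-like cells beyond counting error. Gip-led endocrine clusters of the adult had 12.6 and 14.4 CPM.

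Hbegf encodes heparin-binding EGF-like growth factor. It stood at 60.2 CPM at E12.5, 79.0 at E17.5, 178.8 in adult cells and 178.8 after irradiation. The adult was 2.26-fold above E17.5 (2.18 to 2.35), and the irradiated adult did not differ from the adult beyond counting error, at a ratio of 1.00 (0.965 to 1.04). In other epithelial cells the level was 87.5 CPM at E17.5, 75.9 in adult cells and 79.9 after irradiation. The adult level was carried by enteroendocrine-like cells, which held 75.8% of the adult Hbegf UMIs and 42.9% of all adult UMIs. In that class the level was 315.9 CPM in adult cells and 251.9 after irradiation, a ratio of 0.797 (0.765 to 0.832).
Within that class Hbegf was uneven. Adult clusters 3 and 5, which had the highest Tph1 (the enzyme that starts serotonin synthesis) and Chga, had 825.1 and 1075 CPM. The somatostatin-led cluster had 269.4 CPM, and the other 4 adult endocrine clusters ran from 15.4 to 92.7 CPM. In the irradiated adult the cluster with the highest Tph1 (cluster 0) had 690.9 CPM, while a second Tph1 cluster led by Afp, Gstk1 and Tac1 had 164.9. At E17.5 the Reg4 and Tac1-led cluster had 143.7 CPM against 13.1 to 35.3 in the other endocrine clusters.
Over 22 endocrine clusters log2 Hbegf and log2 Tph1 had a Pearson r of 0.77, a description across clusters that share libraries and depth. Tuft-like cells were low, at 10.6 CPM before and 16.5 after irradiation. A further irradiated adult cluster (cluster 5, 184 cells) held both tuft and endocrine markers, was given no name and had Hbegf at 267.6 CPM. Its 12 enteroendocrine markers summed to 42841 CPM, against 19783 in all epithelial cells of that library, and the part of endocrine RNA in its Hbegf was not tested.
At E12.5, where no lineage was named, Hbegf ran from 16.4 CPM in a cluster led by Spp1, Cpa1 and Clps to 82.5 in one led by Sp5, Vim and Espn. At E17.5 an epithelial cluster without a lineage name, led by Akr1b7, Tff2 and Gsta4, had 220.1 CPM, above every endocrine cluster of that library.

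**Figure D3:**
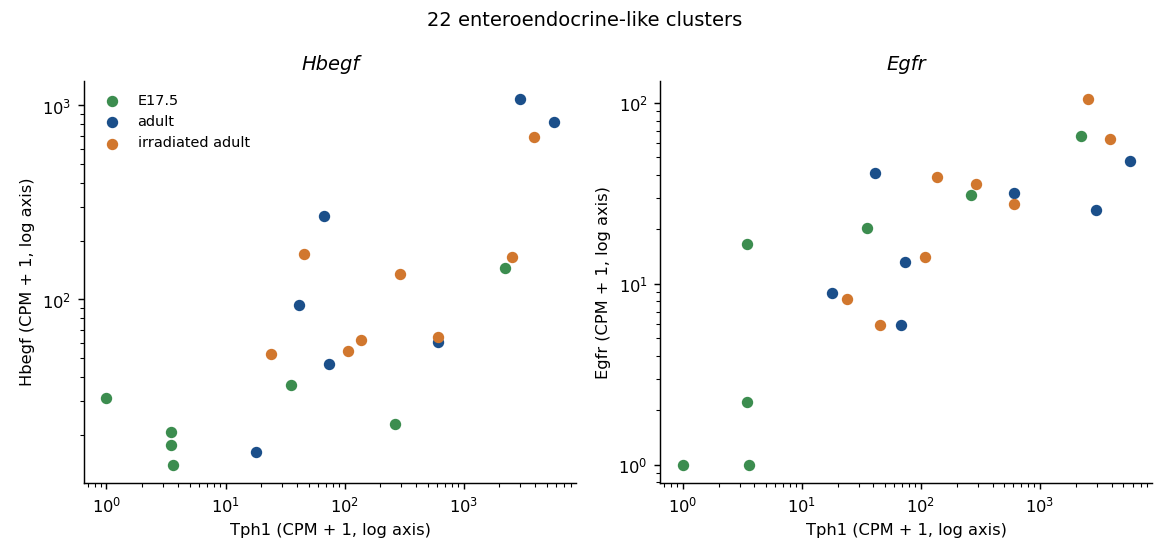
Hbegf (left) and Egfr (right) against Tph1 in 22 enteroendocrine-like clusters, as CPM + 1 on log axes, with 1 point per cluster coloured by library. Both rise with Tph1 over the clusters, and the 2 adult clusters at 825.1 and 1075 CPM are the highest for Hbegf.

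Egfr encodes the receptor of all 6 ligands. Its level in epithelial cells was 1.77 CPM at E12.5, 12.1 at E17.5, 16.1 in adult cells and 30.3 after irradiation. E17.5 was 6.82-fold above E12.5 (5.70 to 8.21). The irradiated adult was 1.88-fold above the adult (1.69 to 2.09), which did not pass the fold. Its ratio was 1.93 in other epithelial cells (1.57 to 2.38) and 1.51 in enteroendocrine-like cells (1.33 to 1.73). In other epithelial cells, where its log2 ratio was 0.87, it passed the fold under 5 alternatives, at 1.13 under TMM scaling, 2.02 with the mean of per-cell CPM, 1.02 with stricter cell filters, 1.31 without clusters 7 and 11 and 1.41 without Paneth-like cells. Irradiated adult clusters 5 and 14, left out of other epithelial cells, had Egfr at 47.4 and 21.0 CPM (132 and 4 UMIs). The ratio with them included was not tested.
Egfr was highest in the endocrine clusters with Tac1 (the substance P precursor) and Tph1, with 64.4 CPM at E17.5 and 103.9 after irradiation. It was at 0 UMIs in both somatostatin-led clusters of E17.5 and at 4.92 and 4.97 CPM in those of the other libraries. The E17.5 cluster led by Sst and Pyy also had Neurog3 at 635.0 CPM. Low Egfr was not limited to these, since the Gcg and Ppy-led cluster of E17.5 had 1.23 CPM. The correlation of Egfr with Tph1 over the 22 clusters was 0.83. Tuft-like cells of the adult had 0.650 CPM, from 3 UMIs, while the E17.5 smooth muscle-like cells had 23.5.
Because the endocrine class was filled by different clusters, with the Gip-led cluster 0 the most numerous in the adult (901 of 2222 cells) and the Tph1-rich cluster 0 in the irradiated adult (618 of 1890), class-wide ratios of Hbegf and Egfr also carry that mix.

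Erbb2 encodes the receptor without a ligand. It was 12.5 CPM at E12.5, 23.5 at E17.5, 15.3 in adult cells and 11.9 after irradiation. At E17.5 the enterocyte-like cells had 30.9 CPM and the enteroendocrine-like cells 5.77, and the mesenchymal-like cells had 35.6 from 17 UMIs.
Erbb3 encodes the partner receptor with little kinase activity and stood at 35.0, 49.8, 63.6 and 49.9 CPM in the same order. Its enteroendocrine-like level was 80.6 CPM in adult cells and 69.9 after irradiation, a ratio of 0.867 (0.799 to 0.941). In other epithelial cells it was 50.8 and 26.5 CPM, a ratio of 0.522 (0.464 to 0.586), but with the mean of per-cell CPM the log2 ratio was 0.04, so the direction rests on how cells are weighted. With mitochondrial and ribosomal protein genes left out of the totals it passed the fold, at -1.06. The E17.5 smooth muscle-like and mesenchymal-like cells had 1.74 and 2.10 CPM.

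**Figure D4:**
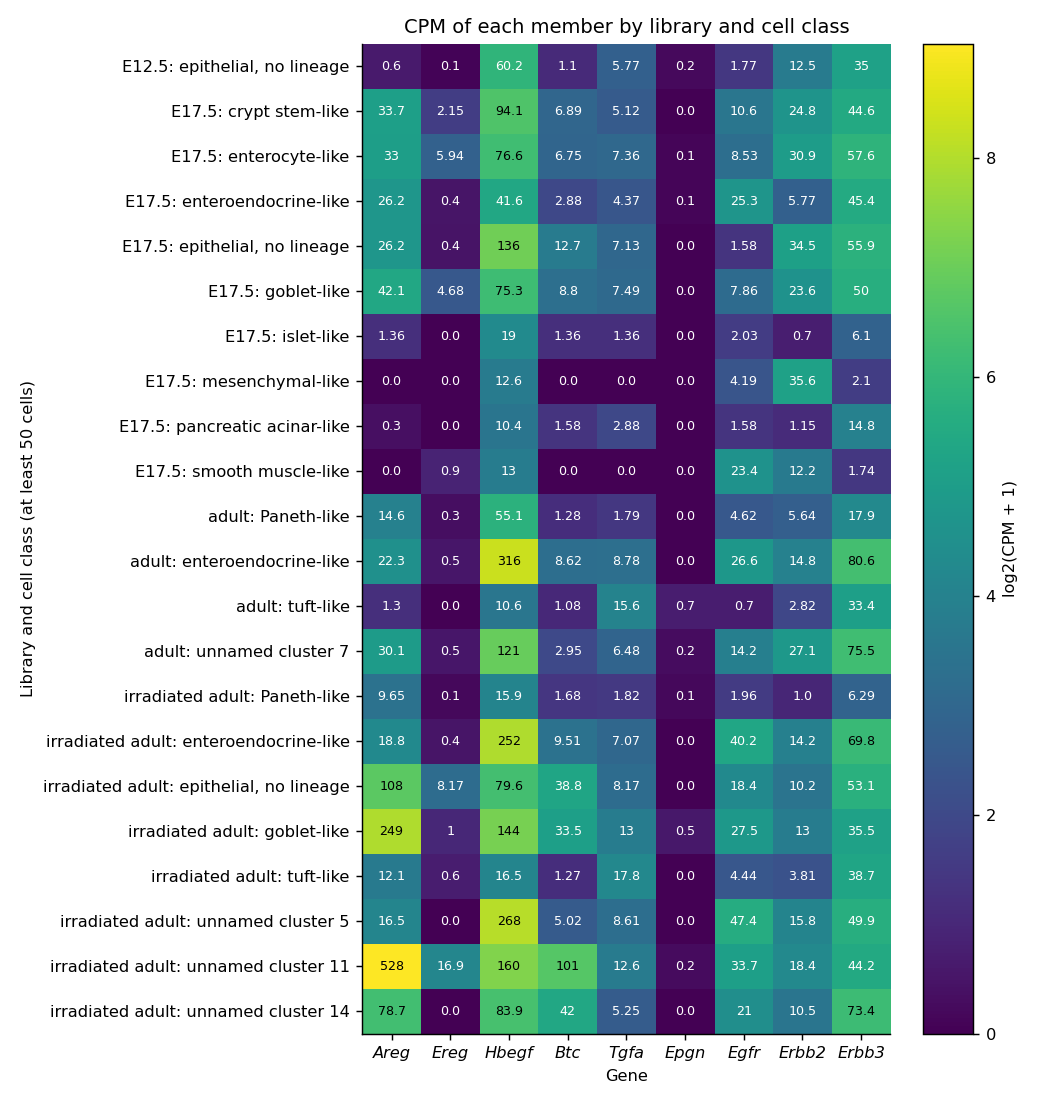
CPM of each member (numbers in cells, colour as log2(CPM + 1)) by library and cell class of at least 50 cells. Areg and Btc are highest in cluster 11 of the irradiated adult (527.8 and 101.0 CPM), and Hbegf is highest in adult enteroendocrine-like cells (315.9 CPM).

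Counted together, 8 of 9 members had enough UMIs in each epithelial comparison. From E12.5 to E17.5, 4 were higher (Areg, Ereg, Btc and Egfr), where 15.5% of all genes tested were higher and 17.1% lower. In other epithelial cells Erbb2 joined them at a log2 ratio of 1.08, against 12.7% higher and 21.2% lower over all genes. From E17.5 to the adult, Hbegf was higher and Ereg lower (14.5% and 15% of all genes), and in other epithelial cells Ereg and Btc were lower and none was higher (10.4% higher and 18.6% lower). From the adult to the irradiated adult, Areg, Ereg and Btc were higher and none lower in epithelial cells (3.05% and 5.35%) and in other epithelial cells (5.73% and 13.6%). None of 7 members tested passed the fold in enteroendocrine-like cells (1.64% higher, 2.55% lower), and neither of the 2 tested in tuft-like cells did (1.67% and 1.48%). The median log2 ratio of all genes was -0.37 in other epithelial cells of the irradiated adult over the adult, and TMM scaling moved it to -0.12 and the calls to 7.70% higher and 8.06% lower. With the mean of per-cell CPM these calls were 10.5% and 6.11%, and those of all epithelial cells 3.93% and 4.10%. TMM scaling moved the other epithelial calls to 16.5% higher and 14.0% lower for E17.5 over E12.5, and to 12.7% and 11.7% for the adult over E17.5, and in tuft-like cells to 1.18% and 2.22%.

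**Figure D5:**
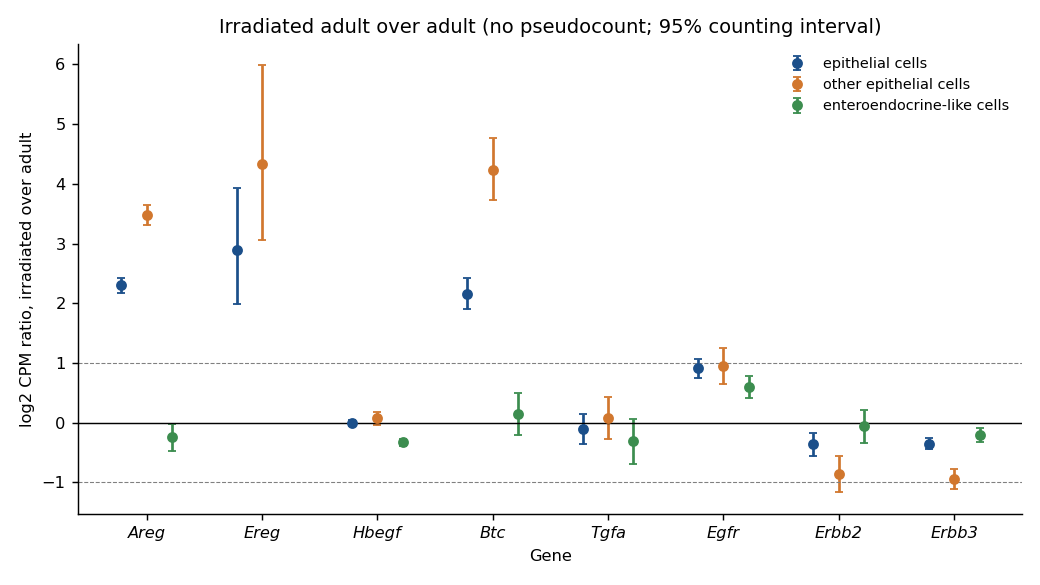
log2 CPM ratio of the irradiated adult over the adult (vertical axis, no pseudocount) by gene, in epithelial, other epithelial and enteroendocrine-like cells, with 95% counting intervals and only genes with at least 50 UMIs. Dashed lines mark ratios of 1 and -1 on the log2 scale, and Areg, Ereg and Btc lie above the upper line in epithelial and other epithelial cells.

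The genes around the receptors were counted from 5 fixed lists. Of all genes tested, 5.73% were higher and 13.6% lower in other epithelial cells of the irradiated adult over the adult. The shares were 3.05% and 5.35% in epithelial cells and 1.64% and 2.55% in enteroendocrine-like cells. Of 8 MAPK-responsive targets, 4 of the 7 tested were higher in other epithelial cells of the irradiated adult and none lower (median log2 ratio 1.01, against -0.37 for all genes). These were the transcription factor genes Fosl1 (1.47 to 9.97 CPM) and Etv4 (3.00 to 15.5), the cyclin gene Ccnd1 (74.9 to 164.3) and Phlda1 (82.7 to 167.5). Ccnd1 was also among the leading genes of cluster 11, and the part of that cluster in these counts was not tested. In epithelial cells only Etv4 passed, at a log2 ratio of 1.67, and in enteroendocrine-like cells Etv4 was higher at 1.33 and Phlda1 lower at -1.28. In tuft-like cells Egr1, an immediate early gene, went from 45.1 to 104.7 CPM.
Among 15 receptor and MAPK inhibitors, 14 were tested in other epithelial cells and Dusp6, a phosphatase of ERK, was higher (9.71 to 33.5 CPM). None of the 15 passed in epithelial or enteroendocrine-like cells. From E17.5 to the adult, 5 of 15 were higher in epithelial cells and none lower, where 14.5% of all genes were higher and 15% lower. Errfi1, an inhibitor of Egfr, went from 61.8 to 258.9 CPM, Dusp5 from 64.5 to 209.6, Dusp4 from 6.86 to 21.6 and Spry4 from 0.884 to 4.17. In other epithelial cells only Cblb was higher and Spred1 lower (10.4% and 18.6% of all genes). From E12.5 to E17.5, Spry1 (57.1 to 12.6 CPM), Dusp4 and Spred1 were lower and Dusp5 higher in epithelial cells, while in other epithelial cells only Spry1 and Dusp4 were lower and none was higher. Of all genes, 15.5% were higher and 17.1% lower in that epithelial comparison, and 12.7% and 21.2% in other epithelial cells.
Etv4 and Etv5 were lower and Ier3 and Myc higher from E12.5 to E17.5 in epithelial and in other epithelial cells alike. From E17.5 to the adult, 4 of 8 targets were higher in epithelial cells, led by Fosl1 and Etv5, and Ier3 and Myc were lower (14.5% and 15% of all genes). But in other epithelial cells only Etv4 was higher and only Ier3 lower, of 7 tested (10.4% and 18.6% of all genes). The median log2 ratio there was 0.02, against -0.36 for all genes.
Of the 5 ligand shedding genes, Rhbdf2, which helps carry the protease Adam17 to the surface, was higher at E17.5 than at E12.5 (3.06 to 7.15 CPM), and none passed in any later comparison. Of the 15 adaptors and Ras-MAPK relay genes, Mapk3 was higher (50.3 to 106.0 CPM) and Gab1 lower in epithelial cells from E12.5 to E17.5. In other epithelial cells of these libraries 0 were higher and 1 was lower, and none passed in the later comparisons. Among the other ErbB ligands and receptor, Nrg4 was higher in the adult than at E17.5 (0.804 to 3.43 CPM) and in tuft-like cells of the irradiated adult (11.9 to 26.0 CPM). Tuft-like cells made up 27.1% of adult epithelial cells and were not named at E17.5, and their part in the difference between those libraries was not tested. Egf was lower in other epithelial cells at E17.5 (2.37 to 0.492 CPM).

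The genes most like each member over the 22 columns were found by Pearson r of log2(CPM + 1) among 12284 genes. For Areg they were Krt19 (0.88), Slc39a4 (0.88) and Casp4 (0.87). Hbegf was followed by Nedd9 (0.93), Krt19 (0.86) and Ralgapa2 (0.85). For Btc they were Ldhd (0.89), Rhbdf2 (0.87) and Tbc1d2 (0.85), and Rhbdf2 is also on the shedding list. Egfr was followed by Sh2b3 (0.82), Fhl2 (0.82) and Sqor (0.80), and Erbb2 by Ankrd9 (0.85), Plin2 (0.84) and Peak1 (0.84). For Erbb3 they included Larp4b (0.93) and Ocln (0.93). The columns share libraries and differ in depth, so these values describe the columns only.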

How the data were processed

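For each of the 4 libraries the authors deposited raw UMI counts per gene and cell barcode, and the submitters' processing notes name Cell Ranger 3.1.0 and mm10. The labels' protocols give the 10x Chromium 3' version 3 chemistry. Total counts were 90674425 at E12.5, 77677622 at E17.5, 38648331 from adults and 50761353 from irradiated adults. The cell filter asked for 500 genes or more and a mitochondrial share of UMIs no higher than 20%, and the highest Scrublet scores were removed as doublets at 0.8% per 1000 barcodes, between 153 and 193 cells a library. Each library was clustered with scanpy 1.11.5 and leidenalg 0.10.2 (2000 variable genes, 30 components, 20 neighbours, resolution 1).

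Clusters were named from 16 marker lists when the mean scaled log2(CPM + 10) was at least 0.5 and at least 3 markers reached 50 CPM in 10% of cells. A name was set aside for low depth, for markers of another class among the 10 leading genes, for no own marker there, or for endocrine and tuft markers together. These thresholds, and 13 hormone genes counted as endocrine, were set after the clusters were seen. The members and lists were chosen with earlier results of these data known. All members are named, with the 3 most similar genes for each member that reached 20 CPM, and of each list up to 4 genes past the fold per comparison. One gene that this rule picks is not reported here. Mitochondrial shares (median 13.6% in both adult libraries, 4.68% and 3.69% in the embryos) and depth differ between libraries. The ratio step, run on simulated counts with 200 changed genes among 31054, gave the right direction for 100% of them in each of the 8 comparisons. These counts held counting error only, and the changed genes were picked among well counted ones. The simulation therefore cannot speak to spread between libraries, depth or the mix of cells. TMM factors came from edgeR 4.0.16, as an alternative scaling only. Promoter windows came from a RefSeq table, which holds no entry used here for Ereg.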

Additional observations from a re-analysis of the deposited data

How the results depend on the processing

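The 19 member ratios past the fold kept their direction in all 310 values under the alternatives, and 292 of these stayed past the fold. Part of this was fixed in advance. The UMI minimums leave each ratio as it was, the pseudocounts cannot turn its direction, and other clusterings keep nearly the same epithelial cells. A pseudocount of 10 CPM left 1 member past the fold in place of 4 in epithelial cells for E17.5 over E12.5 and 1 in place of 5 in other epithelial cells, and 1 and 0 in place of 2 for the adult over E17.5. For E17.5 over E12.5, 6.52% of all genes were then higher and 6.18% lower, and 6.07% and 7.43% in other epithelial cells. For the adult over E17.5 these shares were 5.51% and 6.585%, and 5.01% and 7.09% in other epithelial cells. A minimum of 200 UMIs gave 1 in place of 2 in both comparisons of the adult over E17.5. All genes tested were then 13.3% higher and 15.9% lower in epithelial cells, and 8.45% and 19.15% in other epithelial cells. With per-cell CPM averaged over cells, the adult over E17.5 had 5 lower members in other epithelial cells in place of 2, namely Areg, Ereg, Hbegf, Btc and Erbb2, where 30.5% of all genes were lower against 18.6%. In tuft-like cells of the irradiated adult over the adult, a minimum of 10 UMIs gave 1 member (Areg) in place of 0. With that minimum 4.63% of all genes were higher and 2.99% lower. Keeping the first marker names, which adds the cluster with endocrine markers, gave 4 in this comparison (Areg, Hbegf, Egfr and Erbb2). There 17.1% of all genes were higher against 1.67%. Without the 2 deep unnamed clusters, chosen after seeing the data, no member passed in epithelial cells of the irradiated adult over the adult, in place of 3, while in other epithelial cells 3 did (Areg, Btc and Egfr). Without them 2.19% of all genes were higher and 4.07% lower in epithelial cells, and 6.42% and 20.5% in other epithelial cells. The other alternatives (every barcode, stricter cells, doublets kept, TMM, totals without mitochondrial and ribosomal protein genes, pseudocount 0.1, other clusterings, and, also chosen after seeing the data, hormone genes not counted and no Paneth-like cells) moved no count by more than 1.5 times. The stricter cell filter left too few tuft-like cells for a value. Depth limits Ereg, Epgn and the tuft-like cells, where most members had under 50 UMIs. No paired analysis was possible because each group is 1 library.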
